A study of Mus musculus with 6 samples.

Results

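The genes described here are 10 nuclear genes of mitochondrial fatty acid oxidation: Cpt1a and Cpt2 of the carnitine shuttle, the acyl-CoA dehydrogenase genes Acadvl, Acadl and Acadm, the hydratase gene Echs1, the trifunctional protein genes Hadha and Hadhb, the isomerase gene Eci1 and the electron transfer gene Etfdh. They were chosen by name from the 24054 genes of the deposited table, with earlier results of these data known but by no threshold on measured values; all 10 were found, and all 10 were among the 10975 genes tested after the filter on low counts. The samples were 3 libraries of the mouse line TIBx of genotype WT and 3 of TIBx of genotype DNAJ-PKAc, each with replicates A, B and C, and all cells were grown in DMEM with serum, glutamine and pyruvate. The labels give the cell type of both groups as liver BNL 1ME A.7R.1, a chemically transformed mouse liver line. DNAJ-PKAc joins the start of the co-chaperone DNAJB1 to the catalytic subunit of protein kinase A and is the defining lesion of fibrolamellar carcinoma. Each genotype is a single line, so an effect of the fusion and a difference between the lines cannot be told apart. Nothing in the labels says whether replicates came from separate cultures; p-values therefore measure only how these libraries spread, which may be technical.

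Long-chain fatty acids are activated to acyl-CoA outside the mitochondrial matrix and cross the inner membrane as carnitine esters, and the entry enzyme CPT1 is inhibited by malonyl-CoA, the substrate of fatty acid synthesis. In the matrix each turn of beta-oxidation shortens the chain through a dehydrogenase, a hydratase, a second dehydrogenase and a thiolase, and yields acetyl-CoA, with the electrons passing through electron transfer flavoprotein to the respiratory chain. In liver the acetyl-CoA feeds the citrate cycle and ketone body synthesis, and the genes are classical targets of the nuclear receptor PPAR alpha and of estrogen-related receptors.

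Of the 10 genes, Echs1 rose 2.12-fold in DNAJ-PKAc and was the only gene past the threshold (quasi-likelihood test in edgeR, p adjusted by Benjamini-Hochberg over all genes tested, threshold 0.05). That is 1 of 10 higher and 0 of 10 lower, against 1.37% of all genes tested called higher and 2.14% called lower, or 3.51% called in either direction. An unadjusted p under 0.05 was reached by 3 of the 10, Echs1, Acadl and Acadvl, and by 21.5% of all genes. In bulk RNA, a smaller share of cells with a transcript and less of it per cell cannot be told apart. The 10 genes did not all move one way: the log2 differences, DNAJ-PKAc minus WT, ran from -0.67 to 1.09 with 5 above and 5 below 0, and their median of 0.01 lay beside 0.05 for all genes tested. The 2 long-chain dehydrogenase genes, Acadl and Acadvl, were lower in every DNAJ-PKAc library than in any WT library, Echs1 and Hadha were higher in every one, and the other 6 overlapped. Non-overlap of this kind was met by 13.1% of all genes in the lower and by 15.8% in the higher direction.

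The levels are CPM, counts scaled to a common library size and adjusted by the trimmed mean of M values (TMM) so that libraries can be compared. The totals were 8095549 to 9969590 expected counts per library, and each of the 10 genes had between 148 and 1561 counts in every library. Prkaca, the kinase partner of the fusion, was at 65.4 to 84.1 CPM of the plain totals in WT and 92.5 to 133 in DNAJ-PKAc. DNAJ-PKAc C stood apart from A and B (Pearson's r of 0.914 and 0.911 across genes, against 0.993 between A and B), and WT B stood apart from A and C (0.957 and 0.958, against 0.987). In WT B the ribosomal precursor Rn45s took 2.66% of counts, against 0.912% to 1.05% elsewhere. The noncoding RNA Malat1 took 1.04% in WT B, against 0.209% and 0.258% in WT A and C. It took 0.464% in DNAJ-PKAc C, against 0.107% and 0.115% in DNAJ-PKAc A and B. Summed CPM of 20 cell cycle genes was 3355 and 3519 in DNAJ-PKAc A and B, 406 in C and 838 to 1040 in WT. As a check of the liver label, 9 of 10 hepatocyte markers had 0 counts in every library and Fgb had 1 count in WT A, while the mesenchymal markers summed to between 15014 and 24607 CPM. Of these 6 markers Vim alone gave 11556 to 14225 CPM, Thy1 had 0 counts in every library, and Acta2 rose in DNAJ-PKAc (log2 difference 2.18, edgeR adjusted p = 0.0102). The other 4 lay below 0 without passing. They were Col1a1 at -0.72 (edgeR adjusted p = 0.605), Col1a2 at -0.19 (0.839), Pdgfrb at -0.16 (0.879) and Vim at -0.14 (0.630). Of 4 cholangiocyte markers Krt19 and Epcam had 0 counts in every library and Krt7 had 3 to 7. Sox9 was at 19.7 to 56.0 CPM in WT and 8.53 to 11.9 CPM in DNAJ-PKAc (log2 difference -1.67, edgeR adjusted p = 0.0955). Markers of adipocytes were at 0 throughout, and striated muscle markers summed to at most 0.487 CPM.

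**Figure D1:**
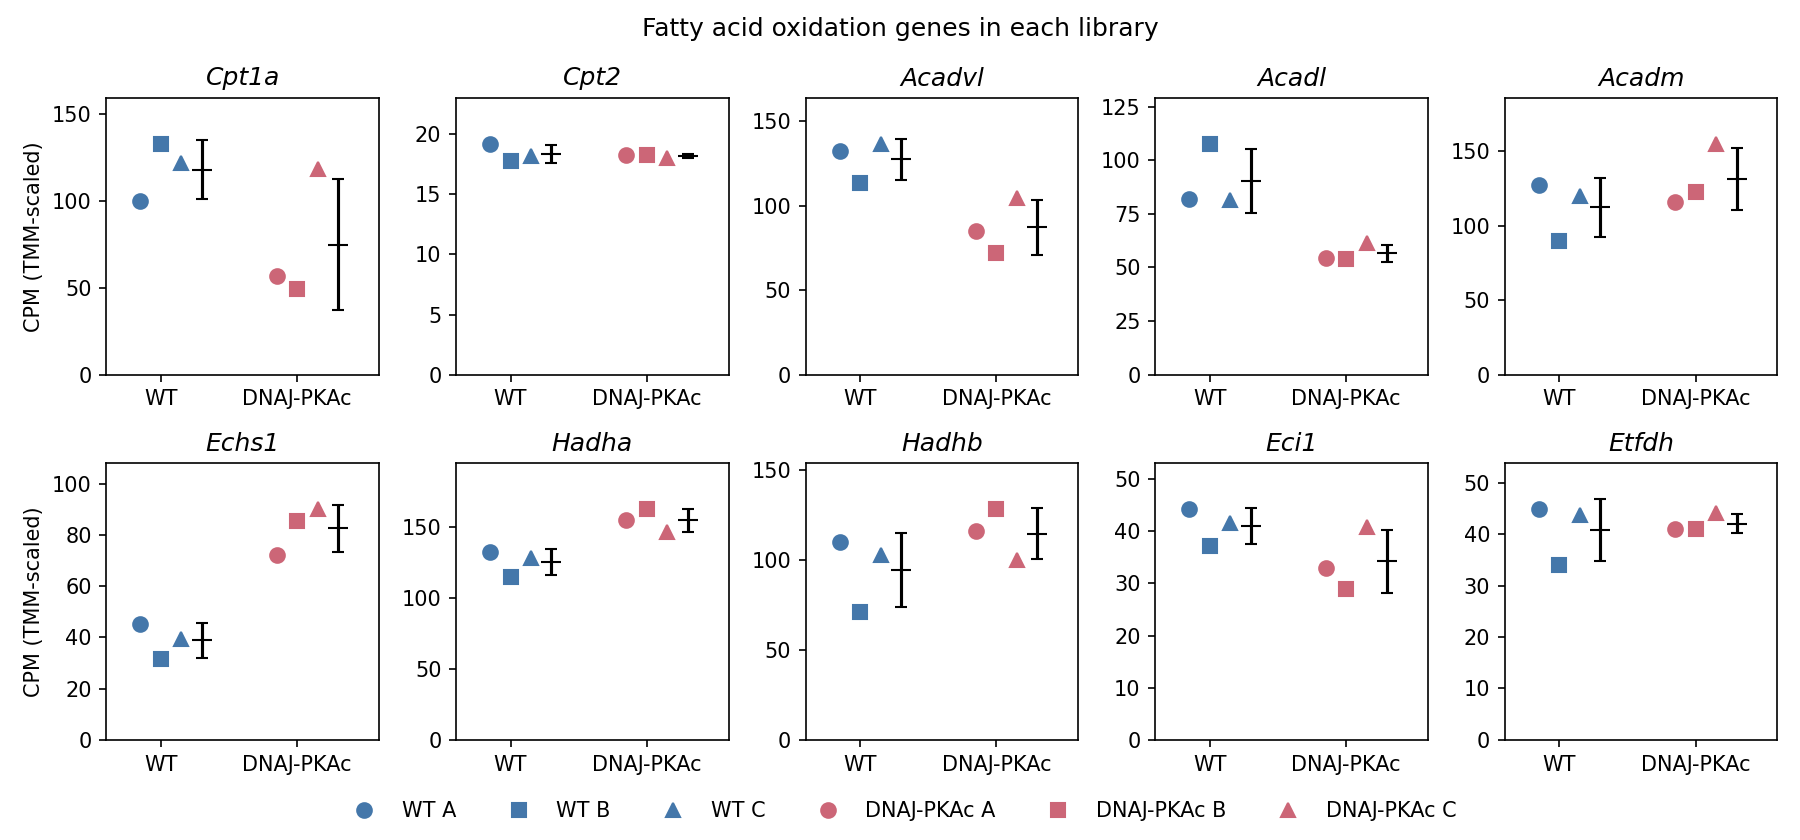
TMM-scaled CPM of the 10 genes in each library, with one panel per gene, a symbol per library (WT A, B and C in blue, DNAJ-PKAc A, B and C in red) and the group mean ± SD in black (n = 3); the vertical axes start at 0 and differ between panels. Echs1 runs from 31.7 to 45.4 in WT and from 72.2 to 89.9 in DNAJ-PKAc, and for Cpt1a DNAJ-PKAc C lies with the WT libraries.

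Echs1, the long-chain dehydrogenase genes Acadl and Acadvl, and the head-to-head pair Hadha and Hadhb are shown with the DNA upstream of their RefSeq start sites (build GRCm38.p6, the assembly of mm10), since they include the gene that passed the test, those whose libraries lay below WT without passing, and the pair that shares a start region. Bases in annotated untranslated exons were left out. Each is written 5′ to 3′ in the direction of the named gene, with capitals for GC boxes (GGGCGG on either strand), the only searched motif found in them; the Acadvl stretch has none. The Echs1 stretch is chr7:140116477-140116671 on the minus strand, the Acadl stretch chr1:66863310-66863559 on the minus strand, the Acadvl stretch chr11:70015429-70015678 on the minus strand, and the stretch between Hadha and Hadhb chr5:30155163-30155247, written on the plus strand, the strand of Hadhb.
Echs1: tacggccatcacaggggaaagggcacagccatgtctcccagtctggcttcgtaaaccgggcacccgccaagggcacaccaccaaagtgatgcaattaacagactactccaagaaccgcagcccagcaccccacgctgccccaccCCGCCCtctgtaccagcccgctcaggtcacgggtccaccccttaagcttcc
Acadl: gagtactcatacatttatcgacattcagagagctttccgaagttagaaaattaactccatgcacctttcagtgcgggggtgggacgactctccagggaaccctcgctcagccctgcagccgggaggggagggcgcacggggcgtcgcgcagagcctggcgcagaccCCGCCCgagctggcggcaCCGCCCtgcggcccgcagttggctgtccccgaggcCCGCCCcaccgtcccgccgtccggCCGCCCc
Acadvl: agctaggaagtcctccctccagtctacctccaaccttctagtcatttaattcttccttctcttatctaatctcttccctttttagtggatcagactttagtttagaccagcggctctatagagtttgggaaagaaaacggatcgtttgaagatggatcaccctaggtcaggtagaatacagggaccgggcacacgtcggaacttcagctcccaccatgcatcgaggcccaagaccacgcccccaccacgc
Hadha-Hadhb: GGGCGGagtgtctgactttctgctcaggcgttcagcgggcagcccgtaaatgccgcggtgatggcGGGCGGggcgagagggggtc
The 4 stretches differ in base composition, with 62.1% G and C upstream of Echs1, 68% for Acadl, 69.4% between Hadha and Hadhb and 49.6% for Acadvl. RefSeq windows of 300 bases, from 250 before to 50 after the start, were matched for all 10 genes and searched on both strands. The GC box was in 8 of the 10 (all but Acadm and Acadvl) and in 35.7% of the 32851 windows of all genes. The windows of Hadha and Hadhb overlap and share a GC box, the only match for Hadha. The share of G and C was 50.7% for Acadvl and 57.3% to 70.3% for the others of the 10, against a median of 52.7% over all windows. The comparison was not matched for this. The full cyclic AMP element TGACGTCA was in 0 of the 10 and in 1.79% of all windows, and its shorter core TGACG, which also lies within the full element, was in Acadm and Etfdh and in 20.8% of all windows. The estrogen-related receptor element TNAAGGTCA and the PPAR element (a direct repeat of AGGTCA with 1 base between) were in 0 of the 10, and in 1.28% and 0.0396% of all windows. The NRF1 site, a palindromic GC-rich motif, was in Etfdh and in 4.6% of all windows, and the CCAAT box in Cpt1a and Etfdh and in 37.4%. A match is a description of letters in this window and no match says nothing of the factor.

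Echs1 encodes short-chain enoyl-CoA hydratase, which adds water to the double bond that the dehydrogenases make and also acts in valine breakdown (chromosome 7, 140105710 to 140116421, minus strand). It read 45.4, 31.7 and 39.4 CPM in the WT libraries, A to C, and 72.2, 85.3 and 89.9 CPM in the DNAJ-PKAc libraries, A to C. Every DNAJ-PKAc library lay above every WT library, and DNAJ-PKAc C, apart from A and B elsewhere, was the highest. The mean went from 38.8 ± 6.83 to 82.5 ± 9.23 CPM (SD, n = 3), a log2 difference of 1.09 (SE 0.19, 95% interval 0.65 to 1.53; edgeR adjusted p = 0.0287). The call was lost without any 1 library other than DNAJ-PKAc C: the adjusted p was 0.0820, 0.0725 and 0.126 without WT A, B and C and 0.0904 and 0.119 without DNAJ-PKAc A and B, with the log2 difference between 0.92 and 1.21. Without DNAJ-PKAc C it was 0.00981. RefSeq places 687 bases of Paox, a polyamine oxidase gene, over the end of Echs1, and whether the counting used strand is not stated in what was available. Paox had 45 to 73 counts per library, against 272 to 738 for Echs1.

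The acyl-CoA dehydrogenases open each turn and differ by the chain length they prefer, from very long (Acadvl) and long (Acadl) to medium (Acadm). Acadl (chromosome 1, 66830839 to 66863309) read 81.7, 107 and 81.3 CPM in the WT libraries, A to C, and 54.2, 54.0 and 61.3 CPM in the DNAJ-PKAc libraries, A to C. Its groups did not overlap, and the highest WT value was WT B. The log2 difference was -0.67 (SE 0.17, 95% interval -1.08 to -0.27), with an edgeR adjusted p of 0.0899 that missed the threshold. DESeq2 put it past the threshold (adjusted p = 0.00851, with 8.87% of all genes called), as did edgeR without DNAJ-PKAc C (0.0232). In simulated counts DESeq2 called 31 unaltered genes, against 7 for edgeR. A pseudogene, Gm15793, lies within Acadl, so some reads could be shared.

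Acadvl (chromosome 11, 70010183 to 70015428) read 132, 113 and 136 CPM in the WT libraries, A to C, and 85.1, 71.9 and 104 CPM in the DNAJ-PKAc libraries, A to C. The groups did not overlap, and DNAJ-PKAc C was the library nearest to WT. Its log2 difference was -0.55 (SE 0.18, 95% interval -0.98 to -0.12; edgeR adjusted p = 0.162). Leaving DNAJ-PKAc C out moved it to -0.70, past the threshold (adjusted p = 0.0205).

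Acadm (chromosome 3, 153922353 to 153944643) read 128, 89.9 and 120 CPM in the WT libraries, A to C, and 116, 123 and 155 CPM in the DNAJ-PKAc libraries, A to C. The groups overlapped and DNAJ-PKAc C was the highest library. The log2 difference was 0.22 (95% interval -0.24 to 0.69; edgeR adjusted p = 0.529), and it was -0.10 without WT B and DNAJ-PKAc C. Taken as a ratio within each library, which library scaling does not alter, and not adjusted for transcript length, Acadm had 0.966, 0.792 and 0.879 counts per count of Acadvl in the WT libraries, A to C, and 1.36, 1.71 and 1.49 in the DNAJ-PKAc libraries. The ratio of Acadm to Acadl was 1.56, 0.836 and 1.48 in WT and 2.14, 2.27 and 2.53 in DNAJ-PKAc. Both ratios were higher in every DNAJ-PKAc library than in any WT library; they were picked after the values were seen and were not tested.

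**Figure D2:**
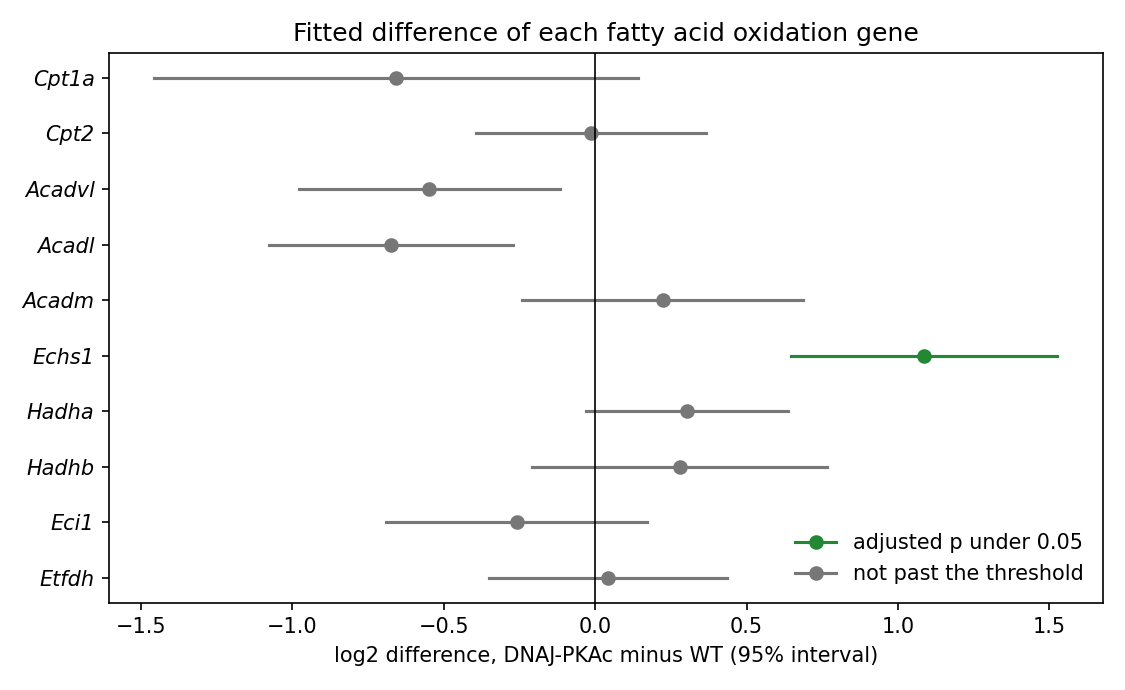
Fitted log2 difference (DNAJ-PKAc minus WT, horizontal axis) of each of the 10 genes with its 95% interval from the edgeR fit on 6 libraries; green marks an adjusted p under 0.05. Echs1, at 1.09, is the only gene in green, and the intervals of Acadl and Acadvl also lie off 0.

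Neither carnitine shuttle gene passed the test. Cpt1a, the liver form of the malonyl-CoA-inhibited entry enzyme (chromosome 19, 3322326 to 3385735), read 99.7, 133 and 122 CPM in the WT libraries, A to C, and 56.9, 49.4 and 118 CPM in the DNAJ-PKAc libraries, A to C. DNAJ-PKAc A and B lay below every WT library, and C lay inside the WT range. Over all 6 libraries the log2 difference was -0.66 (SE 0.34, 95% interval -1.46 to 0.14; edgeR adjusted p = 0.298). Leaving DNAJ-PKAc C out moved it to -1.15, past the threshold (adjusted p = 0.00539). The RefSeq gene Gm36532 overlaps Cpt1a by 4622 bases, so reads there may belong to either. The cell cycle genes split the same libraries, at 3355 and 3519 summed CPM in DNAJ-PKAc A and B against 406 in C, and their part in the Cpt1a, Acadvl and Eci1 values was not tested. Cpt2, the inner-membrane enzyme that hands the chain back to CoA (chromosome 4, 107903982 to 107923589), was between 17.7 and 19.2 CPM in WT and between 18.0 and 18.3 CPM in DNAJ-PKAc, the narrowest log2 range of the 10. Its log2 difference of -0.01 had a 95% interval of -0.39 to 0.37 (edgeR adjusted p = 0.966).

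Hadha and Hadhb encode the alpha and beta subunits of the mitochondrial trifunctional protein, which carries the hydratase, dehydrogenase and thiolase steps for long chains. They lie head to head on chromosome 5, with 272 bases between the RefSeq starts of Hadha (30119423 to 30154980, minus strand) and Hadhb (30155253 to 30184593, plus strand). Hadha read 132, 115 and 128 CPM in the WT libraries, A to C, and 155, 162 and 146 CPM in the DNAJ-PKAc libraries, A to C. Its groups did not overlap, with a log2 difference of 0.30 (SE 0.14, 95% interval -0.03 to 0.64; edgeR adjusted p = 0.260). Hadhb read 110, 71.0 and 103 CPM in the WT libraries, A to C, and 116, 128 and 100 CPM in the DNAJ-PKAc libraries, A to C. DNAJ-PKAc C lay below WT A and C, and the log2 difference was 0.28 (SE 0.21, 95% interval -0.21 to 0.77; edgeR adjusted p = 0.447). Hadha had 1.21, 1.62 and 1.25 counts per count of Hadhb in the WT libraries, A to C, and 1.33, 1.27 and 1.46 in the DNAJ-PKAc libraries. These ratios overlapped between groups, with WT B the highest.

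Eci1, the isomerase that moves a double bond so that unsaturated chains can be oxidized (chromosome 17, 24426683 to 24439316), read 44.2, 37.2 and 41.5 CPM in the WT libraries, A to C, and 33.0, 28.9 and 40.8 CPM in the DNAJ-PKAc libraries, A to C. As for Cpt1a, A and B lay below the WT libraries and C among them (log2 difference -0.26, 95% interval -0.69 to 0.17; edgeR adjusted p = 0.423). Etfdh, which passes electrons from electron transfer flavoprotein to ubiquinone (chromosome 3, 79603788 to 79628767), was between 34.0 and 44.8 CPM in WT and between 41.0 and 44.1 CPM in DNAJ-PKAc. Its log2 difference of 0.04 had a 95% interval of -0.35 to 0.43 (edgeR adjusted p = 0.899) and turned below 0 with other scalings. Etfdh overlaps the chaperone gene Ppid by 23 bases at their ends.

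**Figure D3:**
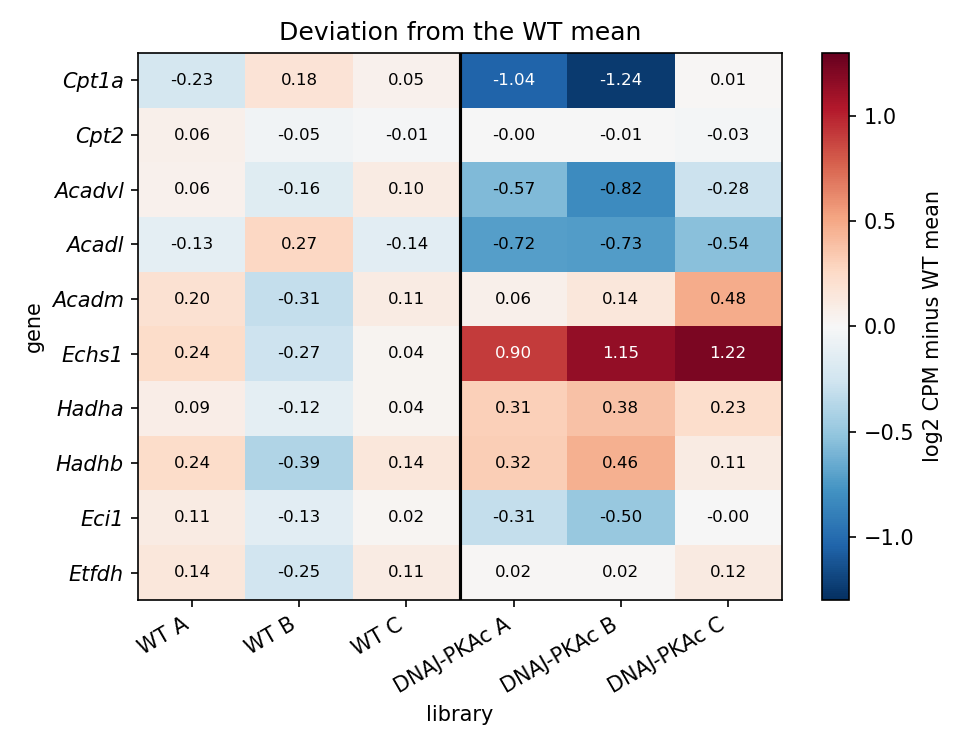
Log2 CPM of each of the 10 genes (rows, in pathway order) in each library (columns) minus the mean of the WT libraries; red is above and blue below that mean, and the numbers are the values. DNAJ-PKAc C departs from A and B for Cpt1a (0.01 against -1.04 and -1.24) but not for Echs1 (1.22 against 0.90 and 1.15).

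Without DNAJ-PKAc C, 4 of the 10 genes passed, with Echs1 higher and Cpt1a, Acadl and Acadvl lower, but in that fit 25.3% of all genes passed, 14.3% higher and 11% lower. Without both WT B and DNAJ-PKAc C, a choice made with results known that keeps the closest pair of each group, 5 of the 10 passed, with Eci1 added to the lower genes, against 48.5% of all genes, 23.9% higher and 24.5% lower.

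Per kilobase of the longest GENCODE transcript, the 10 genes in WT were led by Acadvl at 58.7 ± 5.62 CPM per kilobase (SD, n = 3), Acadm at 54.9 ± 9.73, Acadl at 47.1 ± 7.83 and Hadhb at 46.1 ± 10.1. Eci1 at 36.0 ± 3.08, Hadha at 31.1 ± 2.32, Cpt1a at 27.3 ± 3.89 and Echs1 at 24.9 ± 4.39 followed. Neighbours among these 8 overlapped in range. Etfdh at 17.2 ± 2.51 and Cpt2 at 7.75 ± 0.309 were lowest, with ranges apart from each other and from Echs1. In DNAJ-PKAc the order was led by Acadm at 64.1 ± 10.1 CPM per kilobase, Hadhb at 56.0 ± 6.86 and Echs1 at 53.0 ± 5.93. Echs1 went from rank 8 to rank 3 and Acadl, at 29.5 ± 2.17, from 3 to 7, while Cpt2 stayed last. Echs1 made up 4.80% ± 0.596 of the summed CPM of the 10 genes in WT and 10.4% ± 0.779 in DNAJ-PKAc (SD, n = 3). That sum overlapped between groups, at 750 to 837 CPM in WT and 747 to 878 CPM in DNAJ-PKAc.

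The rest of the pathway was read from lists chosen by function. Of 21 other tested genes of mitochondrial fatty acid oxidation, 0 passed the test in either direction by edgeR, against 3.51% of all genes. By edgeR 4 were at an unadjusted p under 0.05 and by DESeq2 2 passed, against 21.5% and 8.87% of all genes. Of the 21, 9 lay above and 12 below 0, with a median log2 difference of -0.13. The smallest p belonged to Hsd17b10, a hydroxyacyl-CoA dehydrogenase gene of the same matrix spiral, at 108 ± 10.7 CPM in WT and 166 ± 18.4 CPM in DNAJ-PKAc (SD, n = 3; log2 difference 0.63, edgeR adjusted p = 0.0919). Next was Acads, the short-chain dehydrogenase gene, at 70.5 ± 5.44 and 50.8 ± 0.303 CPM (log2 difference -0.47, adjusted p = 0.127). Neither pair of groups overlapped, and DESeq2 put both past the threshold (adjusted p = 0.0397 and 0.0377). Hadh and Acaa2, which encode the medium- and short-chain hydroxyacyl-CoA dehydrogenase and a matrix thiolase, were at -0.18 (edgeR adjusted p = 0.615) and 0.11 (0.760). Without DNAJ-PKAc C 1 of the 21 rose and 6 fell, against 14.3% of all genes higher and 11% lower in that fit.

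Before the mitochondrion, 7 of 14 genes of fatty acid uptake and activation were tested and 0 passed by edgeR, with 4 at an unadjusted p under 0.05 and 1 past the threshold by DESeq2, against 21.5% and 8.87% of all genes. Slc27a1, a fatty acid transport protein gene, was at 241 ± 34.6 CPM in WT and 129 ± 34.7 CPM in DNAJ-PKAc (SD, n = 3; log2 difference -0.91, edgeR adjusted p = 0.0953, DESeq2 adjusted p = 0.0101). The acyl-CoA synthetase gene Acsl3 was at -0.84 (edgeR adjusted p = 0.168) and Acsl1 at -0.12 (0.756). The other genes at an unadjusted p under 0.05, named after their values were seen, were the synthetase genes Acss2 at 0.74 (edgeR adjusted p = 0.175) and Acsl4 at 0.47 (0.191), both higher in every DNAJ-PKAc library than in any WT library. Cd36, a fatty acid receptor gene, had 0 counts in all 6 libraries. Among 8 tested genes of thioesterases and malonyl-CoA control 0 passed by edgeR or DESeq2, with 0 at an unadjusted p under 0.05, against 21.5% of all genes. Acot9 was at 0.52 (edgeR adjusted p = 0.239), Acot2 at 0.69 (0.332) and Acaca, which makes the malonyl-CoA that inhibits CPT1, at -0.13 (0.709). In the peroxisome, which shortens very long chains, 0 of 12 tested genes passed by edgeR. By edgeR 2 were at an unadjusted p under 0.05 and by DESeq2 1 passed, against 21.5% and 8.87% of all genes. Pecr, a peroxisomal enoyl-CoA reductase gene, was at 14.8 ± 0.897 CPM in WT and 7.37 ± 2.53 CPM in DNAJ-PKAc (SD, n = 3; edgeR adjusted p = 0.115). Without DNAJ-PKAc C 3 of the 13 peroxisomal genes tested in that fit fell and 0 rose, against the same 11% and 14.3% of all genes.

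Of the ketone body genes 3 of 5 were tested, and 1 rose by edgeR, against 1.37% of all genes. By DESeq2 1 passed, against 8.87% of all genes, and by edgeR 1 was at an unadjusted p under 0.05, against 21.5%. Oxct1, which activates ketone bodies for use and is low in normal hepatocytes, was at 429 ± 43.2 CPM in WT and 841 ± 142 CPM in DNAJ-PKAc (SD, n = 3). It rose 1.96-fold (log2 difference 0.97, SE 0.19; edgeR adjusted p = 0.0383), and the call was lost with upper-quartile scaling (0.0562) and without any 1 library but DNAJ-PKAc C (0.120 to 0.165). Bdh1, of ketone body synthesis, had 0 counts in every library, and Bdh2 was at -0.50 (0.721). Among 12 tested genes of transcriptional control 1 rose by edgeR, against 1.37% of all genes. By DESeq2 1 passed, against 8.87% of all genes, and by edgeR 3 were at an unadjusted p under 0.05, against 21.5%. Of the 12, 10 lay above and 2 below 0, with a median log2 difference of 0.25. Fgf21, a secreted hormone of the fasting response, had 2, 2 and 0 counts in the WT libraries, A to C, and 20, 17 and 59 in the DNAJ-PKAc libraries (edgeR adjusted p = 0.0444, and 0.0512 by limma-voom). It passed the filter on low counts only through the DNAJ-PKAc libraries, where it is high. Its call, and its part in the counts and median given for the list, are therefore no measure of the list. That call was also lost without any 1 library but DNAJ-PKAc C (0.0858 to 0.148). Esrra, the estrogen-related receptor alpha gene, was at 39.1 ± 4.70 CPM in WT and 57.9 ± 8.95 CPM in DNAJ-PKAc (log2 difference 0.57, adjusted p = 0.153). Ppargc1a, a coactivator of mitochondrial genes, was at 0.64 (0.384). Its paralogue Ppargc1b, named after its values were seen, was at -1.20 (edgeR adjusted p = 0.162), with every DNAJ-PKAc library below every WT library. The PPAR alpha gene Ppara had at most 1 count in any library. Of 10 other known PPAR target genes 3 were tested and 0 passed by edgeR, DESeq2 or an unadjusted p under 0.05, with Angptl4 at -1.08 (edgeR adjusted p = 0.270) and Ucp2 at 0.50 (0.259). Of 6 tested genes of lipolysis and lipid droplets 0 passed by edgeR or DESeq2, and 2 were at an unadjusted p under 0.05, against 21.5% of all genes. They were Lipa at -0.72 (edgeR adjusted p = 0.220) and Dgat1 at 0.47 (0.229).

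**Figure D4:**
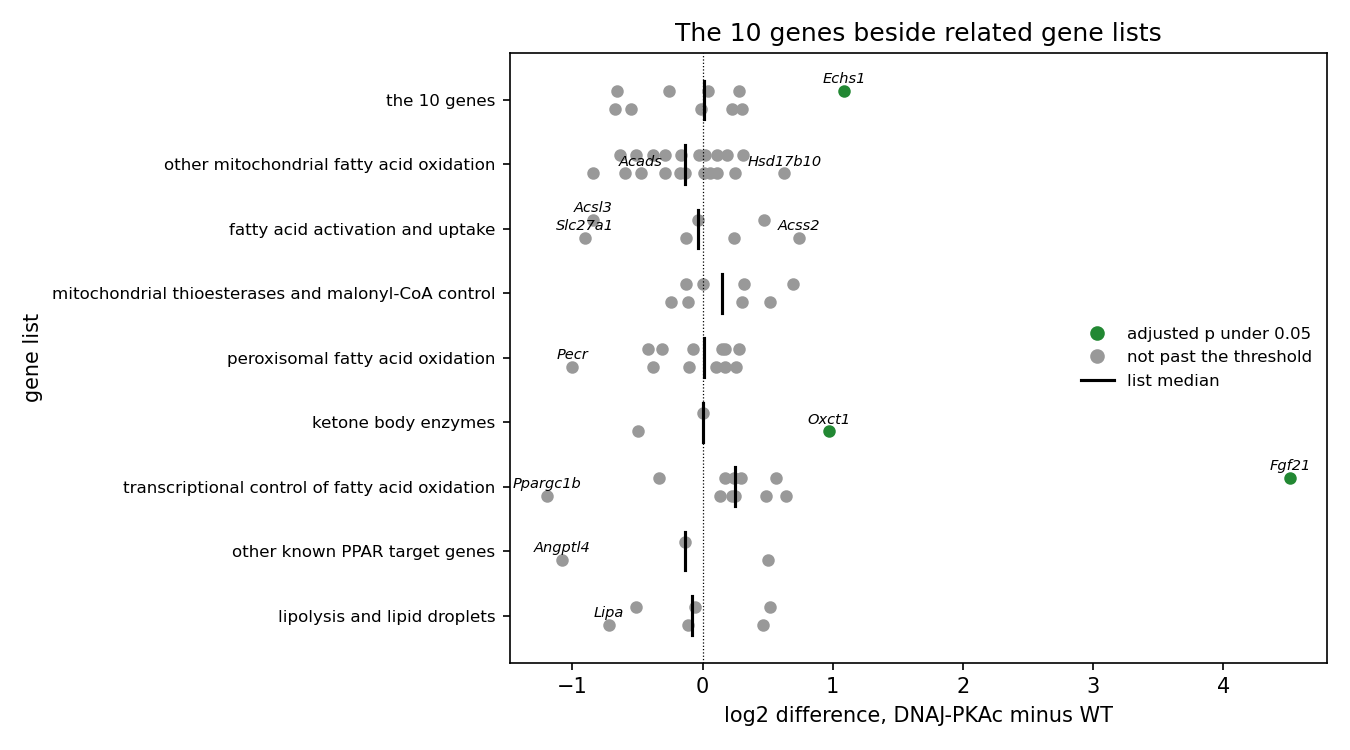
Log2 difference (DNAJ-PKAc minus WT, horizontal axis) of every tested gene in each list (rows), 1 point per gene, with green for an adjusted p under 0.05 in the edgeR fit and a bar at the list median; points are offset vertically for legibility and some genes are named. Each of the 9 lists plotted has genes on both sides of 0, and the calls among them are Echs1, Oxct1 and Fgf21, all higher in DNAJ-PKAc; cell cycle genes and cell type markers are not plotted.

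Among 8824 other genes with a mean of at least 10 CPM, the 5 whose log2 CPM followed the mean standardised level of the 10 genes most closely over the 6 libraries were Cbr4, Bet1, Eif3d, Nradd and Tbc1d19, with Pearson's r between 0.976 and 0.983. This is a description over 6 libraries that share depth and RNA makeup, and the mean profile was lowest in WT B (-0.66) and highest in WT A (0.52). The mean profile pools genes that lay above and below 0. The log2 differences of the 5 similar genes ran only from -0.08 (Cbr4) to 0.01 (Eif3d).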

How the data were processed

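Gene expression was measured by RNA sequencing of stranded total RNA libraries in 6 samples, per the labels' protocols. The authors deposited expected counts per gene symbol, not normalized; the submitters' processing notes name STAR 2.5.2b, RSEM 1.3.0 and mm10 but give no roles, and the sources used here give neither annotation nor strand setting. Non-whole values made up 1.52% to 1.68% of each library.

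Expected counts were rounded, filtered by filterByExpr (minimum count 10), scaled by TMM and fitted in edgeR 4.0.16 (R 4.3.3), quasi-likelihood with robust dispersions and group as the only term. Tests are two-sided with Benjamini-Hochberg adjustment over 10975 genes and a threshold of 0.05. SE is the absolute log2 difference divided by the root of F, and intervals use the fit's degrees of freedom. In log2 CPM a prior count of 2 was used. DESeq2 1.42.0 and limma-voom (limma 3.58.1) were alternatives, beside upper-quartile and RLE factors, no filter, a block for the replicate letter, leaving out libraries in turn and a threshold of 0.01.

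In simulated counts (10975 genes), edgeR found 16 of the 100 genes that had been altered 2-fold, 83 of the 100 altered 4-fold and 7 false ones. DESeq2 found 41 and 90 of them and 31 false ones, so its additional calls include more false ones. The totals run from 8095549 to 9969590 counts. The 10 genes and the lists were chosen with earlier results of these data known. Named were the 10 genes, the 2 genes of smallest p in each list with up to 2 more, and 5 of similar pattern. Some genes of these lists are not reported here by name. Positions and promoters are RefSeq's on GRCm38.p6; lengths are GENCODE M21.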

Additional observations from a re-analysis of the deposited data

How the results depend on the processing

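Over 14 alternatives each, the 10 genes gave 140 values: 118 kept direction and side of the threshold, 8 newly passed (of Cpt1a, Acadl, Acadvl or Eci1), 7 lost the call (all Echs1) and 7 changed sign. Etfdh turned to -0.0038 with RLE, -0.032 with upper-quartile factors and -0.0040 with DESeq2, and to -0.16 with WT B and DNAJ-PKAc C left out. With 1 library left out it ran from -0.12 to 0.11 and Cpt2 from -0.080 to 0.019. Acadm was at -0.10 with those 2 left out. RLE moved the median of all genes from 0.05 to 0.00 and upper-quartile factors to -0.02. The cause of these changes was not tested.

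The calls over all genes went from 385 to 974 with DESeq2 and 72 at a threshold of 0.01, from 77 to 2808 with 1 library left out, and to 5336 with WT B and DNAJ-PKAc C left out, an alternative added after the data were seen. Of the 10 genes 2 were called with DESeq2, 0 at 0.01, 0 to 4 with 1 library left out and 5 with WT B and DNAJ-PKAc C left out. Among the omissions of 1 library, that of DNAJ-PKAc C gave the highest of both counts. With DESeq2, 2 genes were called among other mitochondrial oxidation genes, 1 each among uptake and peroxisomal genes and 2 in cell cycle. In that fit 8.87% of all genes were called. The single ketone body call went to 0 with upper-quartile factors and at 0.01, and the single call in transcriptional control to 0 with limma-voom and at 0.01. With 1 library left out, calls ran from 0 to 7 for other mitochondrial oxidation, 0 to 3 for uptake, 0 to 2 for thioesterases, 0 to 3 for peroxisomal genes, 0 to 2 for ketone bodies, 0 to 2 for transcriptional control, 0 to 1 for PPAR targets, 0 to 2 for lipolysis and 0 to 20 for cell cycle. The highest count of each list came without DNAJ-PKAc C, where 25.3% of all genes were called. With WT B and DNAJ-PKAc C left out 48.5% of all genes were called. The lists, in the same order, then had 11 of 21, 4 of 7, 3 of 8, 6 of 13, 2 of 3, 6 of 12, 2 of 3, 4 of 7 and 20 of 20 tested genes called.

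Between the groups, deviations from the group means correlated at 0.21 for A, -0.20 for B and 0.03 for C. For libraries of different letters they ran from -0.28 (WT A with DNAJ-PKAc C) to 0.30 (WT A with DNAJ-PKAc B). Deviations within a group sum to 0, and DNAJ-PKAc C stood apart from A and B. These correlations therefore cannot show whether the replicate letters pair the libraries. With the replicate block 199 genes were called, 0 of the 10 genes (Echs1 log2 difference 1.09, edgeR adjusted p = 0.0808), 0 ketone body genes and 0 in transcriptional control. In counts simulated for all 6 libraries edgeR found 16 of 100 changes of 2-fold and DESeq2 41, so a gene past the threshold in none of these fits may still differ. Fits with libraries left out were not simulated.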
